A study of Mus musculus with 6 samples.

Results

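Tnfsf10, the gene of the death ligand Trail, lies on mouse chromosome 3, and 7 genes of the same chromosome are described here: Pld1, Zmat3, Mfn1, Actl6a, Exosc9, Cetn4 and Nudt6. They were chosen with results of these arrays in view, from the same contrast that is given below, so their differences between the genotypes are a description and carry no test. They are 7 of 19938 genes that the platform annotation names through probe sets of 1 symbol. It gives them 8 of 21789 such probe sets, 2 for Cetn4 and 1 for each other gene, and 0 probe sets with several symbols hold any of the 7. RNA labelled as aorta was measured on 6 one-colour Affymetrix arrays. The knockout group holds 3 samples, labelled Trail knockout, from Trail-/- mice that came from Amgen. The wild-type group holds 3 samples of C57Bl6/J mice. All 6 samples are labelled with the strain C57Bl6/J and an age of 6 weeks. The sources used here do not give the stem cells in which the allele was made, the number of backcrosses, the part of the gene that is deleted or whether a sample pools animals.

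Trail binds death receptors on the surface of a cell and can start apoptosis through caspases. A gene deleted in embryonic stem cells is passed on together with the stretch of chromosome around it, and until recombination separates them its neighbours come from the stem cell's strain. Genes beside a deleted gene are therefore looked at separately from the rest of the genome in knockout comparisons. The 7 genes share no pathway. Mfn1 encodes a mitofusin, a GTPase that joins mitochondria at their outer membrane. Exosc9 encodes a core subunit of the RNA exosome, which trims and degrades RNA from the 3′ end. Actl6a encodes an actin-related subunit of the BAF, INO80 and TIP60 chromatin complexes. Pld1 encodes a phospholipase D that turns phosphatidylcholine into phosphatidic acid. Cetn4 encodes a centrin, a calcium-binding protein of centrioles and basal bodies, Zmat3 a zinc finger RNA-binding protein induced by p53, and Nudt6 a Nudix hydrolase.

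In the RefSeq gene order (GRCm38.p6) all 7 genes lie on the same side of Tnfsf10, and the order says which of them stand together. Counting protein-coding genes from Tnfsf10, Pld1 is number 4, Zmat3 26, Mfn1 30, Actl6a 32, Exosc9 52, Cetn4 60 and Nudt6 63. Mfn1 and Actl6a are separated by 1 gene, Gnb4, which overlaps Mfn1. Exosc9 overlaps Ccna2. Cetn4 and Nudt6 are separated by Bbs12 and Fgf2. Nudt6 is read from the strand opposite to Fgf2 and overlaps it, and it is known as an antisense gene of this growth factor. Nudt6 also overlaps Spata5, the gene that follows it. The genome build behind the array's design was not given in the sources used.

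Promoter windows of the reference genome are shown for 4 of the 5 genes whose groups did not overlap on 6 arrays. This choice rests on the contrast from which the genes were picked, and whether they share a regulator was not tested. RefSeq windows of 250 bases before to 50 after the gene start (GRCm38.p6) were found for 5 of the 7 genes. Exosc9 and Zmat3 had none. The lines below run 5′ to 3′ along the gene's own strand. Capitals mark every match, on either strand, to the CCAAT box (CCAAT), the GC box (GGGCGG), the core of the cyclic AMP response element (TGACG), the ETS site (CCGGAAG), an arm of the X-box of ciliary genes (GTTGCNAT) or the TATA box (TATAAA). None of these 6 motifs holds another, but neighbouring GC boxes can share a base.
Cetn4, minus strand, chr3:37312397-37312696: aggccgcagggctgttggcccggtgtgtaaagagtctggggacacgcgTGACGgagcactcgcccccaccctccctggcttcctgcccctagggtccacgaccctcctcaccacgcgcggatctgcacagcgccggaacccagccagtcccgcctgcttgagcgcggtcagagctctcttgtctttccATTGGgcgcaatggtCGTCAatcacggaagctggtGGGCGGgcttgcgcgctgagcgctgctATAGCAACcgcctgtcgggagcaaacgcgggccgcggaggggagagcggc
Nudt6, minus strand, chr3:37419547-37419846: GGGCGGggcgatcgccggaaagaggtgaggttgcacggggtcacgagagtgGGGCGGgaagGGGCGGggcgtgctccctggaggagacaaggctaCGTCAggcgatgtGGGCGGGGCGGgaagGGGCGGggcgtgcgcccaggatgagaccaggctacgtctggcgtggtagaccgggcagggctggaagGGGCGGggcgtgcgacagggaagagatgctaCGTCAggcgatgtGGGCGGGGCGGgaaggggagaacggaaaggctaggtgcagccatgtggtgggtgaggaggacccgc
Mfn1, plus strand, chr3:32529232-32529531: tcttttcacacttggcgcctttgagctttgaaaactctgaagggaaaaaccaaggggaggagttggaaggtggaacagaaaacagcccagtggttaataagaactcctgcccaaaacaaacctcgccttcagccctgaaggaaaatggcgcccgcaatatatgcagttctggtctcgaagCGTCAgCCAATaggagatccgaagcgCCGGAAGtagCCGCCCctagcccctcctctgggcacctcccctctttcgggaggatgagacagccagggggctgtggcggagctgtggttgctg
Actl6a, plus strand, chr3:32708296-32708595: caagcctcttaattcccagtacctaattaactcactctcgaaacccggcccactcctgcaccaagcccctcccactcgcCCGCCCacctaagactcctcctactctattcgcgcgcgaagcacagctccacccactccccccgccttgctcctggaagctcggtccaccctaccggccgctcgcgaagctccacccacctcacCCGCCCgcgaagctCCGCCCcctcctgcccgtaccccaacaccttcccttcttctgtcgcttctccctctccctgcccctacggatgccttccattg

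The GC box was found 1 time in Cetn4, 9 times in Nudt6, 1 time in Mfn1 and 3 times in Actl6a, and 35.7% of all 32851 RefSeq windows of this length hold it. It was also found in the first of the 2 Pld1 windows (4 times) and in those of the neighbours Bbs12 and Fgf2 (1 time each), so the 4 windows were not alone in holding it. The 4 windows had a GC content of 55.3% to 70.3%, against a median of 52.7% over all windows, and the shares were not matched for it. The TGACG core matched 2 times in Cetn4, 2 times in Nudt6 and 1 time in Mfn1, against 20.8% of all windows with a match. CCAAT, held by 37.4% of windows, matched 1 time each in Cetn4 and Mfn1. CCGGAAG matched 1 time, in Mfn1 (8.86% of windows), and the X-box arm 1 time, in Cetn4 (2.96%). Outside the 4 windows, that of Bbs12 held the X-box arm, TGACG and CCAAT 1 time each, and its X-box arm is the same site as in Cetn4. Fgf2 held TGACG 2 times, and the first Pld1 window held CCAAT 1 time. TATAAA, held by 13.6% of windows, matched in none of the 4. The Cetn4 window shares 207 of its 300 bases with that of Bbs12, a chaperonin-like gene of the Bardet-Biedl syndrome family that starts beside it on the opposite strand. A match describes letters and does not show that a factor binds there.

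The arrays were first checked against their labels. Tnfsf10 itself gave log2 signals of 8.42, 4.90 and 4.85 on the arrays labelled wild type 1, 2 and 3, and of 5.02, 4.48 and 4.09 on those labelled knockout 1, 2 and 3. It was high on wild type 1 alone, and the values of wild type 2 and 3 lay inside the knockout range, so the arrays are named here by their labels. As markers of the labelled aorta, the smooth muscle actin gene Acta2 gave 12.27 to 12.63 and the endothelial gene Pecam1 8.39 to 9.76 on the 6 arrays. On the 5 arrays other than wild type 1, the skeletal muscle marker Acta1 gave 13 to 13.25 and the squamous epithelium marker Krt4 12.9 to 13.03. Both exceeded Acta2 there, and on wild type 1 they gave 7.28 and 5.10. How much of each tissue the samples held was not tested. Wild type 1 stood apart from the rest: of 21789 probe sets, 1000 exceeded each other array by over 2-fold there and 1036 lay under each by as much. The low ones held 7 of 7 skeletal muscle markers and 7 of 7 squamous epithelium markers, and the high ones 5 of 6 brown fat and 3 of 6 endothelial markers, whose list median there was 9.32 against 7.67 to 8.52 elsewhere. Knockout 2 exceeded each other array by over 2-fold for 6 of 6 stomach and 2 of 4 exocrine pancreas markers, and knockout 1 did so for 5 of 5 lung markers. Wild type 3 also carried stomach genes, with a list median of 8.09 against 12.7 on knockout 2 and 5.05 to 5.57 on the remaining arrays. Differences below are given on 6 arrays and on the 5 arrays without wild type 1, where wild type 3 is 1 of 2 wild-type arrays. In bulk tissue, fewer cells of a type and less RNA per cell cannot be told apart.

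On 6 arrays, 0 of 13073 probe sets (0%) passed limma at an adjusted p under 0.05, and the lowest adjusted p was 0.911; 83 had an unadjusted p under 0.05. On 5 arrays 0 passed (0%), the lowest adjusted p was 0.997, and 186 had an unadjusted p under 0.05. Of the 8 probe sets of the listed genes, 7 passed the filter on mean signal, and the second probe set of Cetn4 did not. Of these 7, 5 were lower on every knockout array than on every wild-type array, against 4.39% of all probe sets tested. On 5 arrays 7 of 7 were, against 8.45%. With the second Cetn4 probe set and no filter these were 6 of 8, against 3.47% of all 21789 probe sets, and 8 of 8 on 5 arrays, against 6.71%. Nothing is read from these shares, since the genes were chosen on this contrast. The median difference of the 7, knockout minus wild type, was -0.311 on 6 arrays and -0.345 on 5, where all probe sets tested had medians of -0.0364 and -0.0262.

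**Figure D1:**
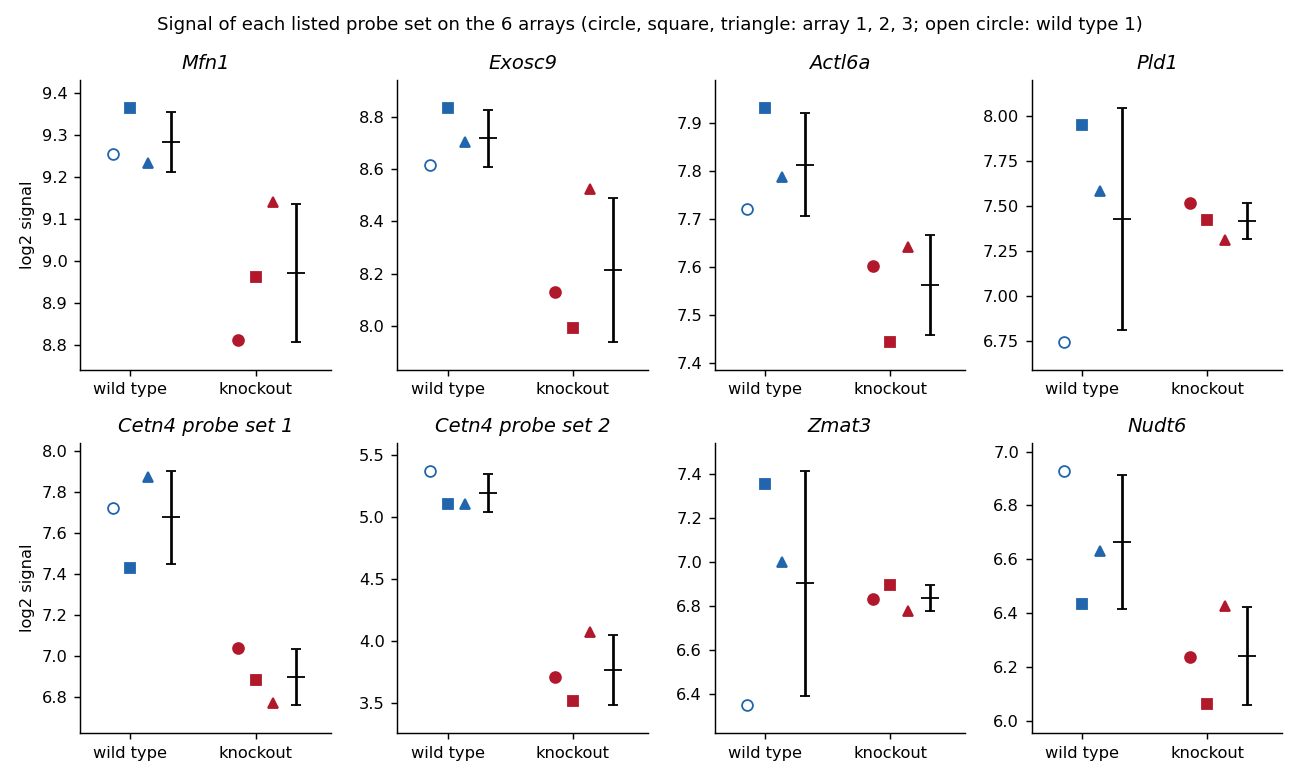
Log2 signal (vertical axis, a separate scale in each panel) of the 8 probe sets on the wild-type (blue) and knockout (red) arrays, with the mean and SD of each group of 3 in black. The knockout arrays lie below all wild-type arrays for Mfn1, Exosc9, Actl6a, Nudt6 and both probe sets of Cetn4, while the open circle of wild type 1 lies below the knockout arrays for Pld1 and Zmat3.

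Cetn4, the centrin gene, differed most. Its first probe set gave log2 signals of 7.72, 7.43 and 7.88 on wild type 1, 2 and 3, and of 7.04, 6.88 and 6.77 on knockout 1, 2 and 3. The groups were 0.39 apart at their nearest arrays, wild type 2 and knockout 1, and wild type 1 lay between the other wild-type arrays. The means were 7.68 ± 0.23 (SD, n = 3) and 6.90 ± 0.14 (SD, n = 3), a difference of -0.78 (SE 0.15) on 6 arrays, or 58.3% of the wild-type signal. On 5 arrays the difference was -0.76 (SE 0.17). Leaving out wild type 1 thus moved it little. Of the 13073 probe sets tested, 152 had a difference as low or lower on 6 arrays and 13 on 5 arrays, the probe set itself included.

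The second Cetn4 probe set was dim and differed in the same direction. On wild type 1, 2 and 3 it gave log2 signals of 5.37, 5.11 and 5.11, and on knockout 1, 2 and 3 of 3.71, 3.51 and 4.07. The gap between the nearest arrays was 1.04, wider than the knockout range of 0.55. The difference was -1.43 (SE 0.17) on 6 arrays and -1.34 (SE 0.17) on 5, from the fit without the filter. Its mean signal lay at percentile 18.2 of all 21789 probe sets, and with 64 added to the linear signal before taking logs the difference on 6 arrays was -0.37, against -0.55 for the first probe set. The order of the knockout arrays differed between the probe sets: knockout 3 was the lowest of them on the first and the highest on the second.

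The genes on either side of Cetn4 were dim, and neither passed the filter on mean signal. Bbs12, which starts beside it and with which it shares most of its promoter window, gave 4.78, 4.83 and 4.82 on wild type 1, 2 and 3 and 4.92, 4.77 and 4.98 on knockout 1, 2 and 3, with overlapping groups and a difference of 0.08 (SE 0.09) on 6 arrays and 0.07 (SE 0.13) on 5. No comparison of the 2 genes beyond these values was made. On its other side Il21, a cytokine gene of T cells, gave 2.93 to 3.21 on the 6 arrays, with differences of -0.03 (SE 0.09) and -0.06 (SE 0.11).

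Nudt6 lay lower in the knockout by a narrow margin. Its log2 signals were 6.93, 6.43 and 6.63 on wild type 1, 2 and 3 and 6.24, 6.06 and 6.43 on knockout 1, 2 and 3. Wild type 2 and knockout 3 were 0.0085 apart, so the groups barely separated. Group means were 6.66 ± 0.25 (SD, n = 3) in the wild type and 6.24 ± 0.18 (SD, n = 3) in the knockout, and the difference of -0.42 (SE 0.17) became -0.29 (SE 0.15) without wild type 1, the highest array. Fgf2, the growth factor gene on the other strand, gave 7.54, 7.17 and 7.29 on wild type 1, 2 and 3 and 7.18, 7.01 and 7.37 on knockout 1, 2 and 3. Its groups overlapped, and it differed by -0.15 (SE 0.15) on 6 arrays and -0.05 (SE 0.14) on 5. Spata5, an ATPase gene that follows Nudt6 and overlaps it on the chromosome, gave 6.96 to 7.09 in the wild type and 6.81 to 6.87 in the knockout. The arrays of its groups did not overlap in signal, with differences of -0.19 (SE 0.09) on 6 arrays and -0.15 (SE 0.10) on 5.

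Exosc9, the exosome subunit, had the next largest difference among the probe sets past the filter. It gave log2 signals of 8.62, 8.84 and 8.70 on wild type 1, 2 and 3 and of 8.13, 7.99 and 8.52 on knockout 1, 2 and 3. The wild-type arrays lay within 0.22 of each other, and the knockout arrays spread over 0.53, with knockout 3 within 0.0952 of wild type 1. The means were 8.72 ± 0.11 (SD, n = 3) and 8.22 ± 0.28 (SD, n = 3), a difference of -0.50 (SE 0.17), and -0.55 (SE 0.18) on 5 arrays. Signal in the knockout was thus 70.5% of the wild type on 6 arrays and 68.1% on 5. Ccna2, the cyclin A2 gene that overlaps Exosc9, gave 6.16, 8.07 and 7.52 on wild type 1, 2 and 3 and 7.44, 7.38 and 7.45 on knockout 1, 2 and 3. Its direction depended on wild type 1: the difference was 0.17 (SE 0.48) on 6 arrays and -0.37 (SE 0.17) on 5. The 5-array difference in turn rested on wild type 2: it was -0.10 without that array and -0.65 without wild type 3.

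Mfn1, the mitofusin, gave log2 signals of 9.25, 9.37 and 9.23 on wild type 1, 2 and 3 and of 8.81, 8.96 and 9.14 on knockout 1, 2 and 3. The wild-type arrays lay close together, within 0.13, and the knockout arrays spread over 0.33, with a gap of 0.092 between the groups. Means of 9.28 ± 0.071 (SD, n = 3) and 8.97 ± 0.16 (SD, n = 3) gave a difference of -0.31 (SE 0.13), and -0.33 (SE 0.13) on 5 arrays, so wild type 1 hardly moved it. Actl6a, 2 genes further along, gave 7.72, 7.93 and 7.79 on wild type 1, 2 and 3 and 7.60, 7.44 and 7.64 on knockout 1, 2 and 3. The groups were 0.0801 apart, between wild type 1 and knockout 3. Its difference was -0.25 (SE 0.12) on 6 arrays, from 7.81 ± 0.11 to 7.56 ± 0.10 (SD, n = 3 each), and -0.30 (SE 0.12) on 5.

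The genes between and beside Mfn1 and Actl6a went different ways. Gnb4, a G protein subunit gene that lies between them, gave 7.47, 6.30 and 6.52 on wild type 1, 2 and 3 and 6.67, 6.58 and 6.40 on knockout 1, 2 and 3. Its groups overlapped, and its difference was -0.21 (SE 0.32) on 6 arrays and 0.14 (SE 0.14) on 5. Zfp639, a zinc finger gene just before Mfn1, was lower on every knockout array, at 7.27 to 7.37 against 7.47 to 7.97, with a difference of -0.36 (SE 0.16) on 6 arrays and -0.21 (SE 0.11) on 5. Mrpl47, a mitochondrial ribosome gene just after Actl6a, had 2 probe sets with overlapping groups. The first was highest on wild type 1, at 7.52, and its difference of -0.33 (SE 0.35) turned to 0.02 (SE 0.21) on 5 arrays, while the second differed by 0.02 (SE 0.20) and 0.05 (SE 0.22).

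For Pld1 and Zmat3 the knockout arrays lay below the wild-type arrays on 5 arrays, while on 6 the groups overlapped. Pld1 gave log2 signals of 6.74, 7.95 and 7.59 on wild type 1, 2 and 3 and of 7.52, 7.42 and 7.31 on knockout 1, 2 and 3. Wild type 1 was the lowest of the 6 arrays, and its value minus the mean of the other wild-type arrays was -1.03. The difference was -0.01 (SE 0.31) with it and -0.35 (SE 0.15) without it, when the groups were 0.0699 apart. On 6 arrays the difference turned to 0.25 without wild type 2, to 0.07 without wild type 3 and to 0.04 without knockout 3. Zmat3, the p53 target, gave 6.35, 7.36 and 7.00 on wild type 1, 2 and 3 and 6.83, 6.90 and 6.78 on knockout 1, 2 and 3. The knockout arrays stayed within 0.12 of each other, wild type 1 was again lowest, and wild type 2 was highest. The difference was -0.07 (SE 0.26) on 6 arrays, 0.16 without wild type 2, and -0.34 (SE 0.14) on the 5 arrays, from 7.18 ± 0.25 (SD, n = 2) to 6.84 ± 0.059 (SD, n = 3). On wild type 1, the lowest array of both genes, the skeletal muscle markers had a median signal of 5.87, against 11.4 to 11.9 elsewhere, and the squamous epithelium markers of 4.92, against 12.4 to 12.6. The part of these tissue genes in the values of Pld1 and Zmat3 was not tested. On the 5 arrays both genes rested on wild type 2: without it the difference was -0.17 for each, and without wild type 3 it was -0.54 for Pld1 and -0.52 for Zmat3.

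Genes next to Pld1 and Zmat3 had overlapping groups. Tnik, a kinase gene beside Pld1, gave 6.63, 7.28 and 7.50 on wild type 1, 2 and 3 and 7.38, 7.46 and 7.25 on knockout 1, 2 and 3, and its difference of 0.22 (SE 0.24) on 6 arrays turned to -0.03 (SE 0.13) on 5. Pik3ca, the catalytic PI3-kinase gene beside Zmat3, was also lowest on wild type 1, at 9.15 against 9.36 to 9.50 on the other arrays. Its difference was 0.04 (SE 0.13) on 6 arrays and -0.07 (SE 0.10) on 5. Tmem212 and Kcnmb2, on the other sides of Pld1 and Zmat3, did not pass the filter on mean signal and differed by -0.06 (SE 0.17) and 0.13 (SE 0.15) on 6 arrays and by -0.02 (SE 0.20) and 0.08 (SE 0.17) on 5.

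**Figure D2:**
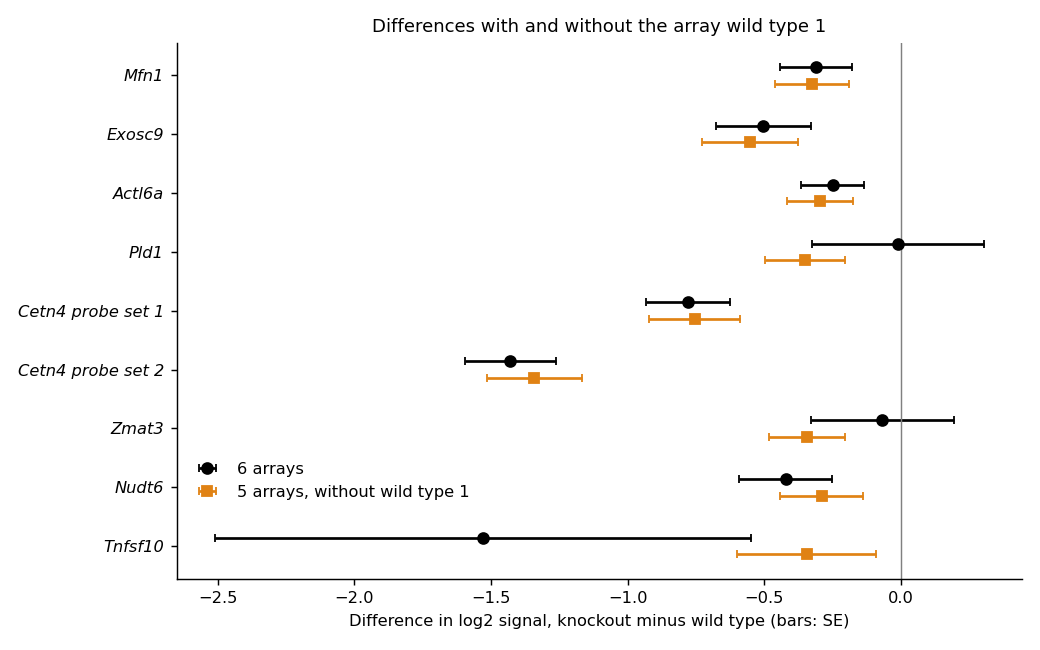
Difference in log2 signal, knockout minus wild type (horizontal axis), of the 8 probe sets and of Tnfsf10 on 6 arrays (black circles) and on the 5 arrays without wild type 1 (orange squares), with bars of 1 SE. The points of Mfn1, Exosc9, Actl6a and Cetn4 lie close together, while those of Pld1 move from -0.01 to -0.35 and those of Tnfsf10 from -1.53 to -0.35.

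Single arrays held the extremes of several genes at a time. Wild type 2 was the highest of the 6 arrays for 5 of 8 probe sets, those of Mfn1, Exosc9, Actl6a, Pld1 and Zmat3. Knockout 3 was the highest of the knockout arrays for 5 of 8 (Mfn1, Exosc9, Actl6a, Nudt6 and the second probe set of Cetn4) and the lowest of them for the other 3. Knockout 2, the array with stomach genes, was the lowest of the 6 for 4 of 8. On the 5 arrays the groups of all 7 probe sets past the filter did not overlap, so leaving out a further array could not turn a sign. The values that follow give only the size of the differences. Leaving out knockout 2 as well as wild type 1 gave differences from -0.20 for Nudt6 to -0.75 for the first probe set of Cetn4. Leaving out knockout 1, the array with lung genes, gave -0.25 for Mfn1 to -0.83 for Cetn4. Without wild type 3, the other array with stomach genes, they ran from -0.19 for Nudt6 to -0.62 for Exosc9.

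Array profiles, centred on each probe set's own mean, were then compared between the genes. Likeness was taken as the root mean square difference in log2 signal between centred profiles over the 6 arrays, and smaller is more alike. The profiles were not scaled, so this measure depends on how much a gene varied as well as on the shape of its profile. Among the 21 pairs of listed genes, Pld1 and Zmat3 were most alike (0.0871), followed by Mfn1 and Actl6a (0.109) and by Mfn1 and Exosc9 (0.149). Pld1 and Cetn4 were least alike (0.58), and Pld1 and Nudt6 came next (0.561). On 5 arrays Pld1 and Zmat3 differed by 0.0553 and Pld1 and Cetn4 by 0.325. Leaving out wild type 1 thus brought the profiles of Pld1 and Cetn4 closer.

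**Figure D3:**
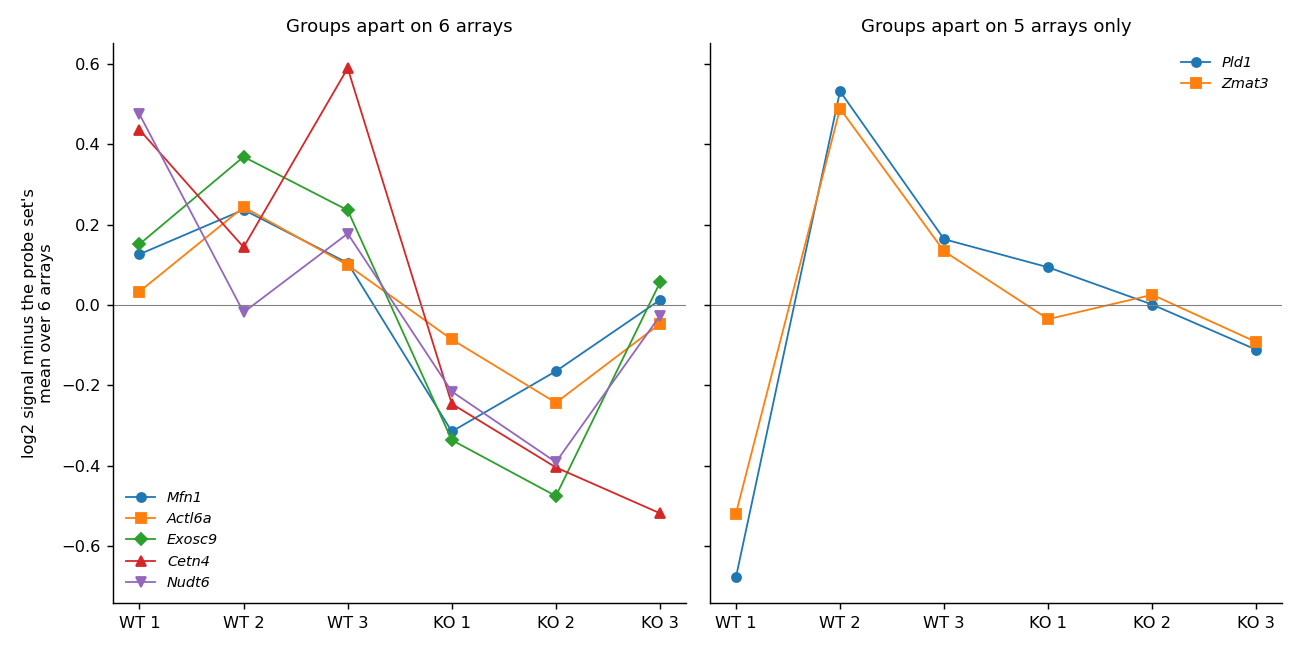
Log2 signal minus the probe set's mean over the 6 arrays (vertical axis) on each array (WT, wild type; KO, knockout), for the 5 genes whose groups did not overlap on 6 arrays (left, first probe set of Cetn4) and for Pld1 and Zmat3 (right). Lines join the values of a gene and imply no order of arrays; Pld1 and Zmat3 follow each other, both lowest on WT 1 and highest on WT 2.

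Apart from Zmat3, the genes whose profiles came nearest to those of the listed genes lie on other chromosomes. Only 607 of the 11881 genes tested lie on chromosome 3, so nothing is read from this. For Pld1 the nearest was Zmat3, and then Cdca8, a gene of the chromosomal passenger complex (0.0951). For Zmat3 these were the mitotic kinase gene Aurka (0.0576) and Jpt2 (0.0628). Mfn1 was nearest to the integrin gene Itga5 (0.0499) and Bysl (0.0562), Actl6a to Wdr82 (0.0328) and the kinetochore gene Mis12 (0.0357), Exosc9 to the haem exporter gene Flvcr1 (0.0709) and Tipin (0.0776), and Nudt6 to Bloc1s1 (0.0313) and the proteasome gene Psmb3 (0.0479). Cetn4 had the most distant nearest genes, Spsb1 (0.17) and the clock gene Per1 (0.185), whose difference was -0.64 (SE 0.12) on 6 arrays. Within 0.1 of Actl6a lay 299 genes and within 0.1 of Mfn1 109, against 2 each for Exosc9 and Pld1 and 0 for Cetn4. These counts depend on how much each gene varied, since the profiles were not scaled.

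The listed genes were set beside all genes tested near Tnfsf10, taking 1 probe set per gene. Within 10 Mb, 52 genes were tested, 15 before and 37 after Tnfsf10. On 5 arrays, 6 of the 52 were lower in the knockout at an unadjusted limma p under 0.05, against 1.09% of all probe sets tested, and these 6 are the listed genes other than Nudt6, which lies just outside this window. The count is what the choice of genes fixed and is no result about them. All 6 lie after Tnfsf10 and 0 of 15 genes before it qualified. On 6 arrays 2 of 52 qualified, Exosc9 and Cetn4, against 0.535% of all probe sets. Over the whole window 29 of 52 genes (55.8%) were lower on 5 arrays, with a median difference of -0.0301, and 26 of 52 on 6 arrays, with a median of 0.00469, while 57.6% and 57.2% of all probe sets tested were lower. The window as a whole thus lay near the background.

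Without the listed genes the window held 46 genes tested, with a median difference of 0.022 on 6 arrays and 0.00037 on 5. Of these, 0 had an unadjusted limma p under 0.05 in either direction. The 10 with the lowest p on 5 arrays are described here, apart from Ccna2 and Zfp639, given above. Anxa5, an annexin gene, gave 11.57, 10.92 and 10.76 on wild type 1, 2 and 3 and 10.66, 10.42 and 10.63 on knockout 1, 2 and 3, with a difference of -0.51 (SE 0.24) on 6 arrays and -0.27 (SE 0.12) on 5. Its groups did not overlap. Ect2, a cytokinesis gene that lies before Tnfsf10, had a difference of 0.22 (SE 0.56) with wild type 1 and of -0.42 (SE 0.20) without it, and like Pld1 and Zmat3 it rested on wild type 2, without which the 5-array difference was -0.12. Wild type 1 was its lowest array, at 5.83 against 7.12 to 8.03. In the other direction Nceh1, a cholesteryl ester hydrolase gene and the nearest tested gene before Tnfsf10, was higher on every knockout array, at 6.91 to 7.66 against 6.43 to 6.83, with a difference of 0.51 (SE 0.24) on 6 arrays and 0.38 (SE 0.23) on 5, which became 0.15 without knockout 2. Gpr160 and Mynn differed by -0.24 (SE 0.16) and -0.24 (SE 0.16) on 6 arrays and by -0.29 (SE 0.17) and -0.25 (SE 0.17) on 5, and Gpr160 was at -0.04 on 5 arrays less wild type 2. Mynn was at -0.13 on 5 arrays less knockout 2. Fxr1 changed direction, from 0.12 (SE 0.39) on 6 arrays to -0.29 (SE 0.20) on 5, and Dcun1d1 differed by 0.22 (SE 0.13) and 0.17 (SE 0.13). Mecom was high on knockout 2 alone, at 8.79 against 6.09 to 7.12 on the other arrays, and its difference of 0.60 (SE 0.75) on 6 arrays and 0.91 (SE 0.74) on 5 became 0.07 on 5 arrays less knockout 2.

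**Figure D4:**
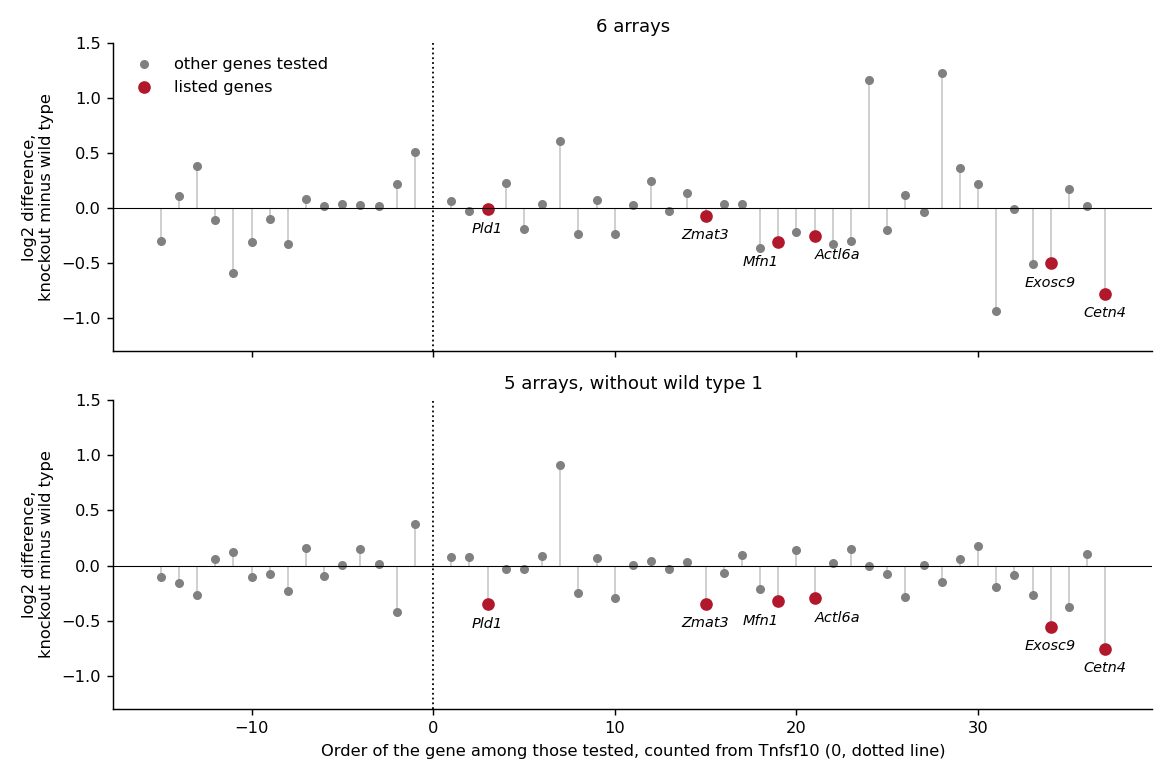
Difference in log2 signal, knockout minus wild type (vertical axis), of the 52 genes tested within 10 Mb of Tnfsf10, in their order along the chromosome counted from Tnfsf10 (horizontal axis), on 6 arrays (top) and 5 arrays (bottom). The 6 listed genes in this window (red) lie to the right of Tnfsf10, between other genes (grey) that differ in both directions; Nudt6 lies outside the window.

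Genes that work with the listed ones or belong to the same family or pathway, called partners here, were taken from 7 lists and described by counts. The lists were written with earlier results of these arrays known. Genes tested numbered 13 for the RNA exosome, 18 for the Actl6a complexes and 10 for mitochondrial fusion and fission. They numbered 14 for phospholipase D and phosphatidic acid, 5 for centrins and centriole, 9 for p53 and 17 for Nudix hydrolases and Fgf2. Of the partners, 1 gene had an unadjusted limma p under 0.05 on 6 arrays (background 0.635% of all probe sets) and 0 on 5 arrays (1.42%), and 0 passed after adjustment. The 1 gene was Poc5, a centrin-binding centriole protein, at 6.33 to 6.51 in the wild type and 6.05 to 6.20 in the knockout, with differences of -0.28 (SE 0.10) on 6 arrays and -0.23 (SE 0.12) on 5. Of 5 centriole genes tested 3 were lower in the knockout on 6 arrays, and the centrins Cetn2 and Cetn3 differed by -0.14 (SE 0.15) and -0.15 (SE 0.13) on 6 arrays and by -0.07 (SE 0.15) and -0.10 (SE 0.13) on 5, with overlapping groups. Cetn4 therefore stood beside 2 relatives with smaller differences, and the difference between these genes was not tested.

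The other subunits of the RNA exosome lay lower for 10 of 13, and their median was -0.111 on 6 arrays and -0.108 on 5. Groups did not overlap for 2 of the lower genes, Exosc4 among them (-0.22, SE 0.13, and -0.11 without wild type 1). In the other direction they did not overlap for Exosc7 (0.24, SE 0.12, and 0.15 without it). Of all 11881 genes tested, 535 were lower and 157 higher on 6 arrays with groups that did not overlap. Nothing is read from these counts. Exosc5 differed by -0.33 (SE 0.23), and by -0.08 (SE 0.12) without wild type 1, where it was highest. Partners of Actl6a were lower for 9 of 18, with a median of 0.00124. Ruvbl2, Epc1 and Smarca4 had the lowest p, with differences of -0.26 (SE 0.15), -0.19 (SE 0.11) and 0.13 (SE 0.15) on 6 arrays and of -0.13, -0.18 and 0.05 on 5. Mitochondrial fusion and fission genes were lower for 8 of 10 (median -0.178), among them Mfn2, the second mitofusin, at -0.29 (SE 0.17), Dnm1l at -0.17 (SE 0.13) and Immt at -0.47 (SE 0.42). Without wild type 1 these were -0.20, -0.10 and 0.0064. For comparison, 57.2% of all probe sets tested were lower on 6 arrays.

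Phospholipase D and phosphatidic acid genes were lower for 5 of 14, with Pld3 at 0.27 (SE 0.18), Pld4 at -0.34 (SE 0.25) and Arf6, a small GTPase that activates phospholipase D, at 0.33 (SE 0.25). Without wild type 1 these were 0.18, -0.13 and 0.08. Of p53 and its targets 6 of 9 were lower, and Phlda3, Trp53inp1 and Perp differed by -0.52 (SE 0.30), -0.26 (SE 0.19) and 1.40 (SE 1.20) on 6 arrays, and Phlda3 and Trp53inp1 by -0.29 and -0.09 on 5. Perp, a gene of squamous epithelium as well, was at 6.96 on wild type 1 and 11.14 to 11.39 on the other arrays, and without wild type 1 it differed by -0.04 (SE 0.11). Nudix hydrolases and Fgf2 were lower for 15 of 17 (median -0.148 on 6 arrays and -0.0324 on 5), with Nudt13, Nudt8 and Nudt4 at -0.64 (SE 0.44), -0.34 (SE 0.22) and -0.25 (SE 0.17). All 3 were highest on wild type 1, and without it they differed by -0.14, -0.13 and -0.12.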

How the data were processed

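The authors deposited log2 values for 35399 probe sets, 1 column a sample; the log base was read from their range. The submitters' processing notes name MAS5 without a role. The sources used here do not give the background correction, summary or scaling. Per the labels' protocols, cRNA was made from 6 ug of total RNA. Of 23410 probe sets in the platform annotation, 21789 have 1 symbol and were used. Values were used without further scaling; the lowest 40% by mean signal were left out, leaving 13073 probe sets.

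Knockout and wild type were compared in limma 3.58.1 (R 4.3.3) with the prior variance following intensity, at a Benjamini-Hochberg adjusted p under 0.05, on 6 arrays and without wild type 1. SEs are limma's moderated ones. Probe sets below the filter (Tnfsf10, Bbs12, Il21, Tmem212, Kcnmb2, the second of Cetn4) were taken from a fit without it. Precision is limited by the number of arrays, and the p-values cover the spread among these samples alone, which may be technical. Genes were ordered by the RefSeq gene table, and promoters came from RefSeq (GRCm38.p6). The fit was tested on simulated data.

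Named genes were all probe sets of the listed genes and Tnfsf10, their neighbours in gene order, the 10 further window genes and 3 genes per partner list with the lowest p, and the 2 nearest profiles; marker genes were fixed beside them. The genes and lists were chosen with earlier results of these data known. Alternatives were quantile normalization, median centring, a pseudocount of 64, no filter or a 60% filter, other moderation, array weights, a replicate block, windows of 5 and 20 Mb or the whole chromosome, leaving out each array, and, added after seeing the data, probe sets with several symbols and, for the named window and partner genes, the 5 arrays less each further array.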

Additional observations from a re-analysis of the deposited data

How the results depend on the processing

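In all alternatives on 6 and on 5 arrays, 0 probe sets passed, with 28 to 640 at an unadjusted limma p under 0.05 on 6 arrays and 49 to 1033 on 5. The listed probe sets kept the sign of their difference in 123 of 128 runs on 6 arrays, with 4 exceptions for Pld1 (one of them quantile normalization, 0.0034) and 1 for Zmat3, and in 120 of 120 runs on 5 arrays; the choice of genes largely fixed these signs. The pseudocount of 64 took the first Cetn4 probe set from -0.76 to -0.54 on 5 arrays. On 5 arrays, 6 of 52 genes within 10 Mb of Tnfsf10 (11.5%) were lower at an unadjusted limma p under 0.05. All 6 are listed genes, so their choice fixed this count, and 0 of the 46 other genes were. Within 5 Mb 1 of 18 (5.56%) was, and on the whole chromosome 15 of 607 (2.47%), against 1.11% of all genes tested. The 6 became 1 with a replicate block and 1, 4 and 8 without knockout 1, 2 and 3. On 5 arrays knockout 1 is alone in its block, so the block gave nearly the same differences as leaving it out (Mfn1 -0.25 in both). Window counts without wild type 2 or 3 are not given, since the wild type then has no replicate. Of all 13073 probe sets, the main fit called 186 in either direction and the block 211. The fits without knockout 1, 2 and 3 called 96, 164 and 1033. The 8 thus came where many more probe sets were called than in the main fit. On 6 arrays the 2 of 52 (3.85%) became 0 of 18 within 5 Mb. Within 10 Mb they became 1 with the replicate block (68 of all probe sets), without knockout 1 (40) and without knockout 2 (28). They became 5 with array weights (640) and without knockout 3 (217), and 6 without wild type 1 (186), against 83 in the main fit. Of the partner genes 1 qualified on 6 arrays, 0 with the 60% filter, 4 with array weights, 0 with a replicate block, and 0 to 1 on leaving out an array (0 without wild type 1, wild type 3 or knockout 2). On 5 arrays 0 qualified, 1 with quantile normalization (188 of all probe sets), 1 with array weights (460) and 4 without knockout 3 (1033). The cause was not tested. Replicate numbers did not pair the samples (correlations of same-numbered deviations 0.0922, -0.245 and 0.212).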
